A study of Mus musculus with 2 samples.

Results

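The 45 genes described here encode the proteins that copy nuclear DNA and 4 enzymes that supply its building blocks. They were chosen by symbol, with no measured value in the rule, from a list drawn up with earlier results of these data known, and grouped as licensing (9 genes), helicase (12), polymerase (9), clamp (6), single strand binding and flap processing (5) and nucleotide supply (4). All 45 were found among the 43346 mouse genes of the deposited tables, 21474 of which are protein-coding in the GENCODE M21 annotation. The tissue was liver dissected from healthy B6NCrl embryos, male and female pooled, at embryonic day 11.5. There were 2 libraries in 1 group, each made from 10 ng of total RNA with added spike-in RNA: replicate 1 came from a pool of 109 embryos, and the sources used here do not state how many embryos made replicate 2. The gene counts summed to 31721267 in replicate 1 and 29750192 in replicate 2, and the members held 279671 and 282880 of them. The group has no untreated or treated counterpart, so genes were compared with each other within the 2 pools and no condition was tested. Markers of both main liver populations were present. In replicates 1 and 2 the 8 hepatoblast markers had a median of 781 and 822 TPM. They ranged from Hnf4a at 14.4 and 16.1 to Afp at 4700 and 5460. The 8 red cell precursor markers had a median of 152 and 187 TPM, from Epb42 at 46.9 and 56.7 to Klf1 at 349 and 405.

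Before a cell copies its genome, the origin recognition complex, CDC6 and CDT1 load rings of the MCM2-7 helicase onto DNA, a step called licensing that geminin holds back once copying has begun. CDC45 and the GINS complex then turn the loaded ring into an active helicase, primase and DNA polymerase alpha lay down primers, and polymerases delta and epsilon extend them while held by the sliding clamp PCNA. Many of these genes are known to be transcribed under control of the E2F family as cells enter S phase. The fetal liver at this stage is a site of rapid red cell production beside growing hepatoblasts, and both are dividing populations. In bulk RNA, more dividing cells and more RNA per dividing cell cannot be told apart.

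Every member but Gins3 stood above the median detected protein-coding gene in both libraries. Values are TPM, each transcript's share of all transcripts on a fixed scale, which corrects for length, so levels can be set side by side between genes. All 45 members had a TPM of at least 10 in both libraries, where 35.1% of protein-coding genes did, and all therefore passed the detection level of 1 TPM that 56.6% of protein-coding genes passed. A TPM of 50 in both libraries was reached by 39 of 45 members against 12.4% of protein-coding genes, and a TPM of 100 by 20 of 45 against 6.19%. The median member stood at 91.7 TPM in replicate 1 and 105 in replicate 2. The median protein-coding gene with a TPM of at least 1 in both stood at 16.2 and 17.3. Together the members made up 0.629% and 0.686% of the TPM of mouse genes.

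Among the 6 roles, nucleotide supply had the highest median level, 214 TPM in replicate 1 and 245 in replicate 2. Single strand binding and flap processing followed at 133 and 135, the clamp and its loader at 124 and 142, and the helicase group at 120 and 139. The polymerases had a median of 80.9 and 87.2 and the licensing genes of 70.5 and 82.6. The order of polymerases and licensing genes reversed on protein-coding transcripts alone. There the middle licensing gene had 66.3 TPM (Orc3) in replicate 1 and 77.9 (Cdt1) in replicate 2. The middle polymerase gene, Pold1, had 53.6 and 56.0. In nucleotide supply, Tyms fell from 232 and 246 TPM to 20.6 and 23.6 on those transcripts. The order of clamp and helicase against single strand binding was not the same in both libraries, so these 3 middle groups are not ranked among themselves. In replicate 1 the helicase genes spanned the widest range, from 12.6 to 293 TPM, and the single strand binding and flap genes the narrowest, from 113 to 164, as the plot of levels by role shows.

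**Figure D1:**
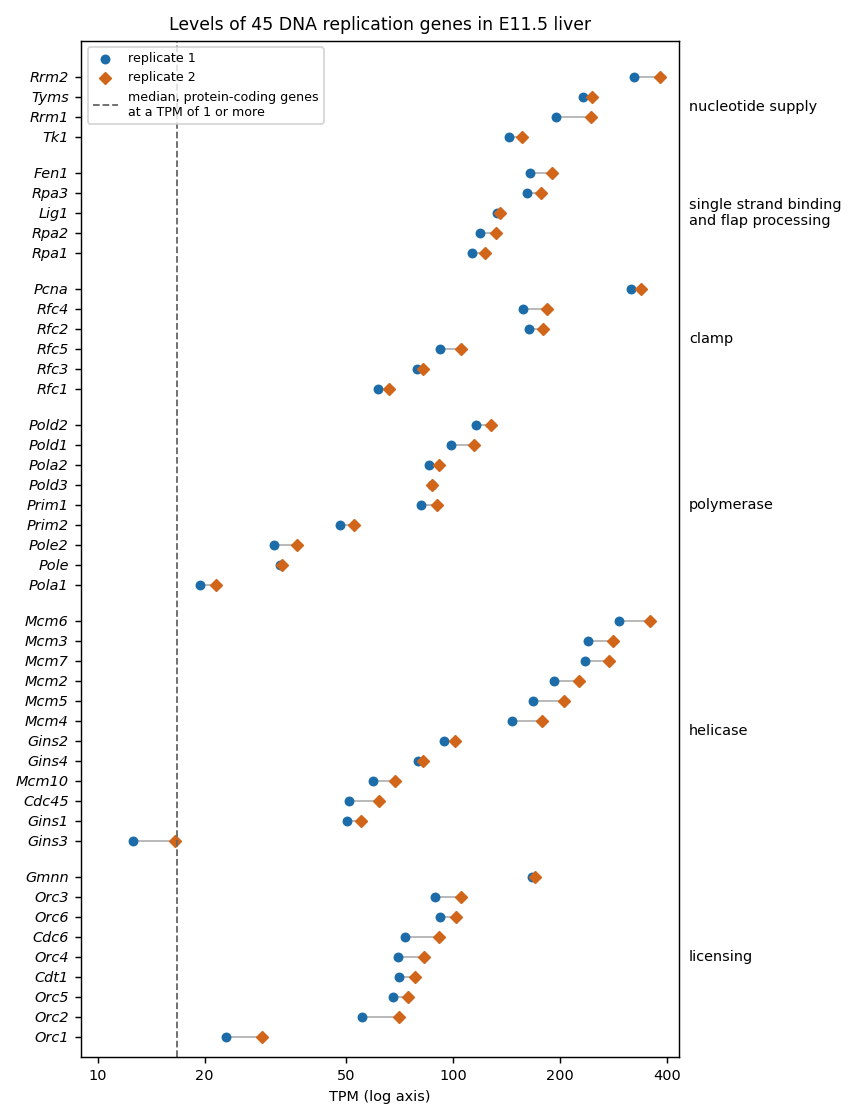
Level of each of the 45 members in TPM on a log axis, by role, in replicate 1 (circles) and replicate 2 (diamonds); the dashed line is the median of protein-coding genes with a TPM of 1 or more. Gins3 is the one member at or below that line, and Rrm2, Pcna and Mcm6 lie furthest to the right.

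The highest member was Rrm2, the small subunit of ribonucleotide reductase that cells make anew for S phase, on chromosome 12 from 24708241 to 24714146 (GRCm38, plus strand). It stood at 322 TPM in replicate 1 and 382 in replicate 2, a mean of 352 ± 42.6 (SD, n = 2), which ranked it 333 of 21474 protein-coding genes. Pcna, the sliding clamp, followed at 316 and 337 TPM, and Mcm6 at 293 and 358. At the other end, Gins3, a GINS subunit on chromosome 8 from 95633453 to 95645060, had 12.6 and 16.5 TPM, a mean of 14.6 ± 2.78 (SD, n = 2). Pola1, the catalytic subunit of polymerase alpha, was next lowest at 19.4 and 21.5 TPM, then Orc1, an origin recognition subunit under cell cycle control, at 23 and 29.

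The promoters of the members were read because E2F control is their best known shared property. Sequence windows from 250 bases before to 50 after the transcription start, from RefSeq on GRCm38.p6, were found for 37 of 45 members; Pole, Mcm4, Prim2, Gins2, Rfc2, Gins4, Gmnn and Gins1 were not matched. The E2F motif was searched as 4 spellings, TTTCCCGC, TTTCGCGC, TTTGCCGC and TTTGGCGC, on both strands. It was present in 15 of the 37 members, or 40.5%, against 2.60% of the 27025 genes with a window and 4.85% of the 9585 protein-coding genes at a TPM of 1 or more. With the first T removed from each spelling, 24 of 37 members held a match (64.9%) against 10.9% of all genes and 19.6% of protein-coding genes at a TPM of 1 or more. In the 250 bases before the start alone, 9 of 37 members held one of the longer spellings (24.3%) against 2.16% and 4.02%. A match is a string of letters and not a measured binding site.

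The next stretches run 5′ to 3′ along the strand of the gene, end at or before its RefSeq start, and lie outside annotated exons; capitals mark the E2F spellings, on either strand. They are shown because they hold the densest matches (Mcm6 and Mcm5) and matches in a licensing gene and in the lowest polymerase gene (Cdc6 and Pola1). The Mcm6 stretch is chr1:128359706-128359885 on the minus strand, and that of Mcm5 is chr8:75109329-75109508 on the plus strand. The Cdc6 stretch is chr11:98907982-98908150 on the plus strand, and that of Pola1 is chrX:93632156-93632335 on the minus strand.
Mcm6: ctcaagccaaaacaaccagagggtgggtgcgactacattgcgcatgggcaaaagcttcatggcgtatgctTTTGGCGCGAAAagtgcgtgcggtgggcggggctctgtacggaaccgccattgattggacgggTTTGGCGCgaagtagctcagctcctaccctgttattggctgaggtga
Mcm5: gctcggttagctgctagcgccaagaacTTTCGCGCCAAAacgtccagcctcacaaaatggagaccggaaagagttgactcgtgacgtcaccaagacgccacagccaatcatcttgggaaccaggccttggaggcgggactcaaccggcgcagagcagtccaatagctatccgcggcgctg
Cdc6: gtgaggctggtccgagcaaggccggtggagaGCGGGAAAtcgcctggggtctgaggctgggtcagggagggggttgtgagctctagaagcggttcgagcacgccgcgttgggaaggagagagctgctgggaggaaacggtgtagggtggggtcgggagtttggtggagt
Pola1: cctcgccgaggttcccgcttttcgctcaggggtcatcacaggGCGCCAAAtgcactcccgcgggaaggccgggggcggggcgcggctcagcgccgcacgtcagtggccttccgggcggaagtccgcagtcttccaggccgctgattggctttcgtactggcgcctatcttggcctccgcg

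In Mcm6 and in Mcm5 a spelling on one strand overlaps a spelling on the other, which gives the longer runs of capitals. Positions are counted from the start, with negative numbers before it. Mcm6 held 3 places in all, whose first bases were at -110, -106 and -47, and Mcm5 held 2, at -153 and -149. The places in Cdc6 and Pola1 both began at -138.

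In other members the match lies in or next to an annotated exon, of the member or of another gene. Stretches of 30 bases around it are shown for the lowest members among them (Orc1 and Gins3). So are those for the members with 2 places of which at least 1 begins before the start (Rfc3 and Mcm7). They are Orc1 (chr4:108579416-108579445, plus strand), Gins3 (chr8:95633507-95633536, plus strand), Rfc3 (chr5:151651200-151651229, minus strand) and Mcm7 (chr5:138172030-138172059 and chr5:138171849-138171878, minus strand).
Orc1: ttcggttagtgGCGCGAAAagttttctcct
Gins3: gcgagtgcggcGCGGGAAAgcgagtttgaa
Rfc3: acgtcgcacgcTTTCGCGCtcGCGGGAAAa
Mcm7, before the start: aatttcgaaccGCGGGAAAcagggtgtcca
Mcm7, after the start: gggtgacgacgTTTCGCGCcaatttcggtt

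The remaining members with a match were Orc3, Cdt1, Mcm3, Pold1, Pold3, Pole2 and Lig1; Mcm3 held 2 places, at 20 and 39 after the start. By role, 5 of 8 helicase genes with a window held a match, 4 of 8 licensing genes, 4 of 7 polymerase genes, 1 of 5 clamp genes, 1 of 5 single strand binding and flap genes and 0 of 4 nucleotide supply genes. These differences between roles depend on the spelling: with the first T removed, the counts were 5 of 8 helicase, 5 of 8 licensing, 5 of 7 polymerase, 3 of 5 clamp, 4 of 5 single strand binding and flap and 2 of 4 nucleotide supply genes. Members with and without a match overlapped widely in level. The 15 with a match ranged from 12.6 to 293 TPM in replicate 1 (median 87.2) and from 16.5 to 358 in replicate 2 (median 91.1). The 22 without one ranged from 50.9 to 322 (median 114) and from 61.7 to 382 (median 126). The 3 lowest members, Gins3, Pola1 and Orc1, all held the motif, and the 2 highest, Rrm2 and Pcna, did not. The next highest, Mcm6, Mcm3 and Mcm7, all held it.

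Shares of other promoter motifs were nearer the background or differed from those of mitosis genes. CCAAT was found in 23 of 37 members (62.2%), in 43.4% of protein-coding genes at a TPM of 1 or more and in 41.1% of all genes; all 8 helicase genes with a window had it. The cell cycle homology region, written TTTGAA and known from genes of late cell cycle, was found in 5 of 37 members (13.5%), near the 14.2% of protein-coding genes at a TPM of 1 or more. It was found in 12 of 18 mitosis genes (66.7%), of which 1 (5.56%) held the E2F motif. In the 250 bases before the start alone the region was found in 5 of 18 mitosis genes (27.8%), while the members remained at 13.5%. The GC box GGGCGG was in 28 of 37 members (75.7%), near the 69.3% of protein-coding genes at a TPM of 1 or more, and TATAAA in 3 of 37 (8.11%) against 8.62%. The members' windows had a median GC content of 60.0% against 60.8% for those protein-coding genes. The plot of motif places and shares sets these side by side.

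**Figure D2:**
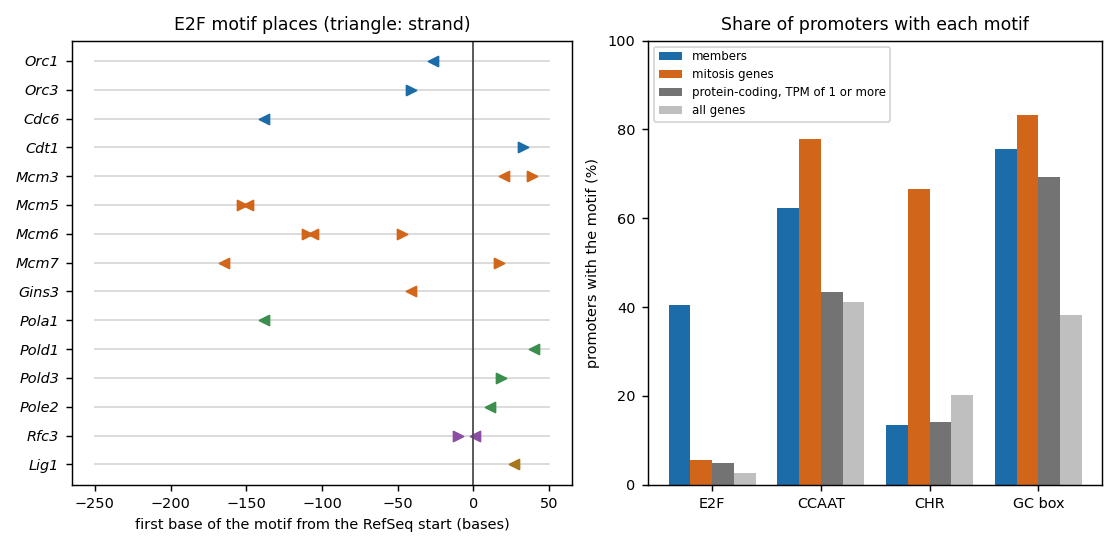
Left, first base of each E2F motif place in bases from the RefSeq start for the 15 members that hold one, with the triangle giving the strand and the colour the role; right, percent of promoters holding each of 4 motifs in the members, the mitosis genes, protein-coding genes at a TPM of 1 or more and all genes. The E2F bar is 40.5% in the members and 5.56% in the mitosis genes, while the bar of the cell cycle homology region (CHR) is 13.5% and 66.7% over the whole window (13.5% and 27.8% before the start alone).

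Several members share their start region with another gene on the other strand. For 13 of 45 members a protein-coding gene started within 1000 bases on the other strand, or 28.9%, against 10.8% of all protein-coding genes and 16.2% of those at a TPM of 1 or more. The partners ranged widely in level. Tmem258, whose start lies 155 bases inside Fen1, had 366 and 381 TPM, above Fen1 itself. Afmid, which starts 168 bases inside Tk1, had 6.37 and 8.91 TPM. Rars2, an arginyl-tRNA synthetase of mitochondria, starts 13 bases from Orc3 and had 54.1 and 68.5 TPM. The others were Prpf38a by Orc1, Mbd5 by Orc4, Vps35 by Orc6, Prkdc by Mcm4, Ap4m1 by Mcm7, Ufd1 by Cdc45, Abhd12 by Gins1, Pxmp2 by Pole, Smyd4 by Rpa1 and Umad1 by Rpa3.

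Licensing genes spanned from 23 to 167 TPM in replicate 1. Within the origin recognition complex, whose 6 subunits sit together on origins, Orc1 stood apart at the bottom on the gene level. Orc2 was the next lowest at 55.5 TPM in replicate 1 and 70.2 in replicate 2. It was 2.41-fold above Orc1, with the deposited intervals of both genes apart in both libraries. Genes are called ordered here when that holds and the direction is the same in both, and for the fixed pairs when the mean log2 ratio is also larger than the difference between libraries. Orc5 had 67.7 and 74.4 TPM, Orc4 had 69.8 and 82.6, Orc6 had 91.6 and 102, and Orc3 had 88.7 and 105. Of the 5 steps between neighbours in this order, those from Orc6 to Orc4 and from Orc2 to Orc1 held in both libraries, and the other 3 did not. The highest subunit was 3.98-fold and 3.63-fold above the lowest. On protein-coding transcripts alone Orc4 fell to 19.6 and 25.6 TPM, under Orc1 at 21.3 and 26.1, as described with the transcripts.

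Cdc6, which loads the helicase together with the origin recognition complex, had 73.2 TPM in replicate 1 and 91.1 in replicate 2. Cdt1, its partner in loading, had 70.5 and 77.9, and the 2 genes were not ordered (mean log2 ratio 0.14 ± 0.12 SD, n = 2). Gmnn, which encodes the inhibitor geminin that binds CDT1, was at 167 and 170 TPM and thus the highest licensing gene in both libraries. Gmnn was 2.27-fold above Cdt1 per unit length. Its transcript is short, with an effective length of 864 bases against 2090 for Cdt1, and the raw counts of the 2 genes were alike, 3716 and 3309 for Gmnn and 3806 and 3668 for Cdt1.

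The 6 subunits of the MCM2-7 ring were among the most abundant members and had the same order in both libraries. Mcm6 led at 293 and 358 TPM. Mcm3 followed at 239 and 281 and Mcm7 at 235 and 274, and this pair could not be ordered. Mcm2 had 192 and 226, Mcm5 had 168 and 205, and Mcm4 was lowest at 146 and 178. The top was 2.01-fold above the bottom in each library, although the proteins form the ring in equal numbers, and 4 of the 5 steps between neighbours were ordered. Mcm8 and Mcm9, relatives that act in repair and not in the ring, were far lower: Mcm2 was 12.8-fold above Mcm8 (15.0 and 17.5 TPM) and 66.3-fold above Mcm9 (2.87 and 3.22 TPM).

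The factors that activate the ring were lower than the ring itself. Cdc45 had 50.9 TPM in replicate 1 and 61.7 in replicate 2, and Mcm2 was 3.71-fold above it. Mcm10, needed for unwinding to begin, had 59.4 and 68.5, and Mcm2 was 3.26-fold above it, or 5.05-fold on protein-coding transcripts alone. The 4 GINS subunits were the most uneven complex. Gins2 stood at 94.2 and 101 TPM, Gins4 at 79.5 and 82.1, Gins1 at 50.2 and 55.0 and Gins3 at 12.6 and 16.5, a 7.47-fold and 6.12-fold range with all 3 steps ordered. The place of Gins2 at the top depends on a short transcript with a retained intron, as described with the transcripts.

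Among polymerase subunits, Pola1, Pole and Pole2 were low and the other 6 higher. Among the 4 genes of primase and polymerase alpha, Pola1 was lowest at 19.4 and 21.5 TPM. Prim2, the large primase subunit, had 47.9 and 52.7, Prim1, the catalytic one, had 80.9 and 89.8, and Pola2, the accessory subunit, had 85.7 and 91.0. Pola1 thus stood 2.47-fold and 2.45-fold under the next lowest subunit. Polq, a repair polymerase, had 16.4 and 15.1 TPM, and Pola1 was 1.29-fold above it, or 2.78-fold on protein-coding transcripts alone.

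Polymerase delta, which extends the lagging strand, had 3 subunits at similar levels. Pold2 had 116 and 128 TPM, the catalytic Pold1 had 98.7 and 114, and Pold3 had 87.2 in each library, so the highest was 1.33-fold and 1.47-fold above the lowest. On protein-coding transcripts alone Pold1 was lowest, at 53.6 and 56.0 TPM against 56.0 and 63.3 for Pold3. The range was then 1.55-fold and 1.7-fold, though the coding levels of Pold1 and Pold3 may be too low, as described with the transcripts. Pold4, the smallest subunit of the enzyme, is outside the 45 and was far lower at 15.9 and 15.1 TPM. Polymerase epsilon, which extends the leading strand, was lower throughout its 2 large subunits: Pole had 32.5 and 33.0 TPM and Pole2 had 31.4 and 36.4, and they were not ordered; on protein-coding transcripts alone Pole2 was 1.58-fold above Pole. Its 2 small histone-fold subunits are outside the 45 and were higher, Pole3 with 78.0 and 85.6 TPM and Pole4 with 80.8 and 86.6. Among the catalytic subunits, Pold1 was 3.24-fold above Pole and 5.19-fold above Pola1, and on protein-coding transcripts alone 2.56-fold and 2.90-fold. Pole and Pola1 were not a fixed pair; on protein-coding transcripts they were close, with 19.4 and 23.6 TPM for Pole and 17.4 and 20.3 for Pola1.

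Pcna stood at 316 and 337 TPM, 1.85-fold above Fen1 and 5.13-fold above Rfc1, the large subunit of the loader that opens the clamp. In replication factor C, Rfc2 had 163 and 179 TPM and Rfc4 had 157 and 184, which were not ordered. Rfc5 was lower at 91.7 and 105, Rfc3 at 79.3 and 82.2 and Rfc1 at 61.4 and 65.8. The subunits fell into a high pair and a low trio, with Rfc4 1.71-fold and 1.75-fold above Rfc5.

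RPA, the trimer that coats single strands, had a narrow range on the gene level. Rpa3 had 161 and 176 TPM, Rpa2 had 119 and 132 and Rpa1 had 113 and 123, a 1.43-fold range in each library, and the step from Rpa3 to Rpa2 was ordered. On protein-coding transcripts alone the range was 2.74-fold and 2.52-fold, with Rpa1 at 58.5 and 69.8 TPM. Fen1, the nuclease that trims flaps between lagging strand fragments, had 164 and 190 TPM. Lig1, the ligase that joins those fragments, had 133 and 135. Lig1 was 5.58-fold above Lig3 (22.7 and 25.3 TPM) and 45-fold above Lig4 (2.83 and 2.93 TPM), ligases of single strand break repair and of end joining. Rpa1 was 4.55-fold above Orc1, or 2.71-fold on protein-coding transcripts alone.

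Nucleotide supply genes were all at 143 TPM or more on the gene level. Rrm1, the large subunit of ribonucleotide reductase, had 195 TPM in replicate 1 and 244 in replicate 2, and Rrm2 was 1.61-fold above it. By raw counts Rrm1 was the higher of the 2, with 19635 and 21469 counts against 16823 and 17557, since its effective length is 3898 bases against 2023 for Rrm2 in replicate 1. Rrm2b, the form of the small subunit that supplies resting cells, had 3.25 and 3.87 TPM, 96.2-fold under Rrm2. Both Rrm2b values lay below their own deposited intervals, which began at 3.32 and 4.16. On deposited posterior means, 4.29 and 5.45 TPM for Rrm2b, the log2 ratio of Rrm2 to Rrm2b was 6.12 instead of 6.59. Tk1, the thymidine kinase of dividing cells, had 143 and 156 TPM and stood 16.2-fold above Tk2, its mitochondrial counterpart (9.22 and 9.01 TPM), or 10.1-fold on protein-coding transcripts alone. Tyms, thymidylate synthase, had 232 and 246 TPM on the gene level, 1.60-fold above Tk1.

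In all, 18 of the 20 pairs were ordered and 16 of 26 steps between neighbouring subunits. The widest ratios were those of Rrm2 over Rrm2b, Mcm2 over Mcm9, Lig1 over Lig4 and Tk1 over Tk2, which the plot of pair ratios shows. The 16 counterpart genes as a list had a median of 12.0 and 14.4 TPM, with Lig4 and Mcm9 lowest. Polb, the polymerase of base excision repair, had 35.9 and 42.2 TPM, and Exo1, an exonuclease of mismatch repair, had 93.1 and 104, close to the median member.

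**Figure D3:**
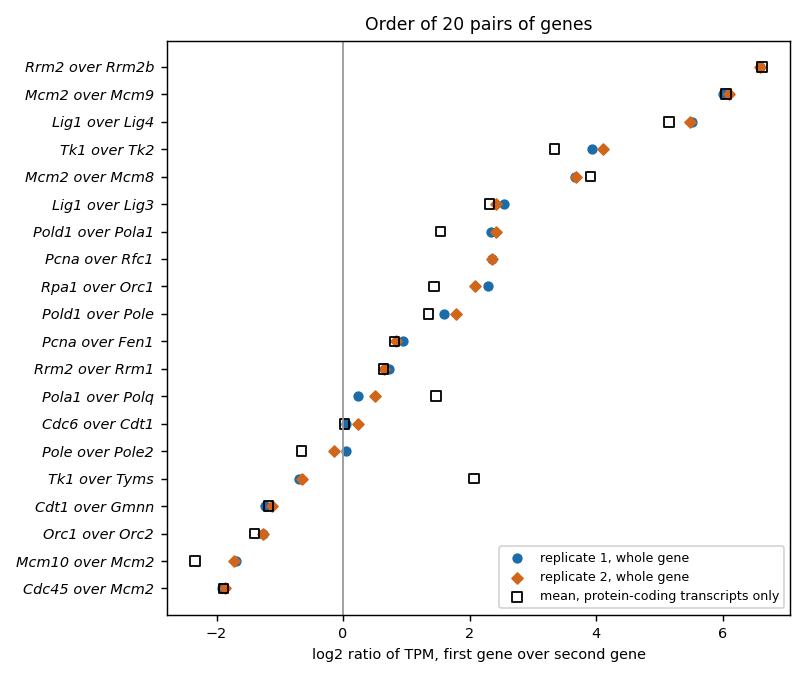
Log2 ratio of TPM between the genes of 20 fixed pairs in replicate 1 (circles) and replicate 2 (diamonds), with open squares for the mean ratio over protein-coding transcripts alone (not drawn for Rfc1). Rrm2 over Rrm2b lies furthest right at 6.59, and Tk1 over Tyms is the one ordered pair whose square, at 2.07, lies on the other side of 0.

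Reads of some members may be shared with other genes, because 50-base words of their coding transcripts also occur elsewhere in the M21 transcripts on either strand. For 16 of the members no such word was shared. Fen1 shared 76.7%, mostly with Gm10143 on the other strand, which held 468 and 293 counts against 8866 and 8995 for Fen1. Gins2 shared 70.3%, all with Gse1, which held 1823 and 1429 counts against 3247 and 2890. Pcna shared 31.8% with its pseudogene Pcna-ps2, at 56 and 63 counts against 11282 and 10464. Mcm7 shared 26.1% and Orc2 20.8%. The sources used here do not say whether counting used strand, so the split between such genes is uncertain, and the level of Gins2 is the one most open to it.

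The transcript values change the picture for a few members. They are model estimates, in which reads that fit several transcripts are split between them. That split can differ between the libraries: Lig1-201 held 32.3% of its gene in replicate 1 and 48.2% in replicate 2. The shares below rest on this split and were not measured in another way. The same main transcript led in both libraries for 44 of 45 members, and for 35 of the 36 with 2 or more transcripts, against 90.8% of such genes overall. The exception was Orc3, where Orc3-202 held 38.1% of the gene in replicate 1 and Orc3-201 held 41.9% in replicate 2, while Orc3-201 held 36.6% in replicate 1 and Orc3-202 held 37.0% in replicate 2. Across the members 82.9% and 84.2% of TPM lay on transcripts annotated as protein-coding, against 87.9% and 88.4% over all detected protein-coding genes. Retained intron transcripts, in which a piece that is normally spliced out remains, held 11.2% and 10.6% against 5.97% and 5.69%. Above 20% of TPM was on such transcripts in 10 members in replicate 1 and 11 in replicate 2, or 22.2% and 24.4%, against 10.6% and 9.49% of detected genes. By counts the gap was smaller, 4.34% and 3.81% against 3.40% and 3.07%, because short transcripts weigh more in TPM.

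Tyms was the extreme case. Its coding transcript Tyms-201, 3163 bases long, held 8.86% of the gene's TPM in replicate 1 and 9.61% in replicate 2, or 20.6 and 23.6 TPM. The largest share, 44.5% and 45.1%, was on Tyms-205, a transcript of 797 bases annotated for nonsense-mediated decay, and 32.3% and 32.8% was on Tyms-202, a retained intron transcript of 816 bases. By counts Tyms-201 held 1629 in each library out of 6808 and 6277. On coding transcripts alone Tyms fell from rank 6 of the 45 to rank 41 of the 44 with a coding level (Rfc1 was not ranked), and Tk1 (88.1 and 98.6 TPM) was then 4.21-fold above it, the reverse of the gene level order.

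Gins2 showed the same pattern. Gins2-204, a retained intron transcript of 511 bases, held 64.9% and 69.5% of its TPM, and the coding Gins2-201 of 3900 bases held 23.1 and 24.7 TPM but 2267 and 2116 of the gene's counts. On coding transcripts Gins2 was at rank 38 and Gins4 became the highest GINS subunit, so the order of these 2 genes reversed while Gins3 remained lowest. Orc4 held 28.1% and 31% of its TPM on coding transcripts, 19.6 and 25.6 TPM, which put it with Orc1 (21.3 and 26.1 TPM) at the foot of the origin recognition complex. For Rfc1, 82.5% and 80.5% of TPM was on transcripts with no entry in M21, so its coding level is not read here and it enters none of the coding counts. Such transcripts also held 21.3% and 14.6% of Pold3 and 9.45% and 10.8% of Pold1. They were counted as not coding there, so the coding levels of Pold3 and Pold1 may be too low.

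Smaller shifts touched other members. Retained intron transcripts held 47.6% and 42.9% of Rpa1, 40.3% and 28.6% of Pole, 38.2% and 36.9% of Tk1, 36.4% and 34.2% of Mcm10, 36.2% and 39.4% of Pold1 and 32.4% and 29.9% of Mcm3. With coding transcripts alone Mcm3, at 161 and 197 TPM, moved below Mcm7, Mcm2 and Mcm5 among the MCM2-7 subunits, and the 2.00-fold and 2.01-fold range of the ring was almost unaltered. All 44 members with a coding level had at least 10 TPM on coding transcripts, and 33 at least 50. The share of all protein-coding genes past these levels was not computed on coding transcripts. Median coding levels were 72.0 and 82.9 TPM for these members. For the 12165 protein-coding genes with a gene level of at least 1 TPM they were 13.6 and 14.8. Of the 17 ordered pairs without Rfc1, 16 kept their direction, and of the 15 ordered steps without it 14 did, the exceptions being Tk1 with Tyms and Gins2 with Gins4. Cdt1, Mcm2, Mcm4, Mcm5, Gins3, Gins4, Pole2, Rfc2 and Rrm1 each have 1 transcript in the tables and are untouched by this choice. The plot of gene and coding levels shows the members that moved most.

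**Figure D4:**
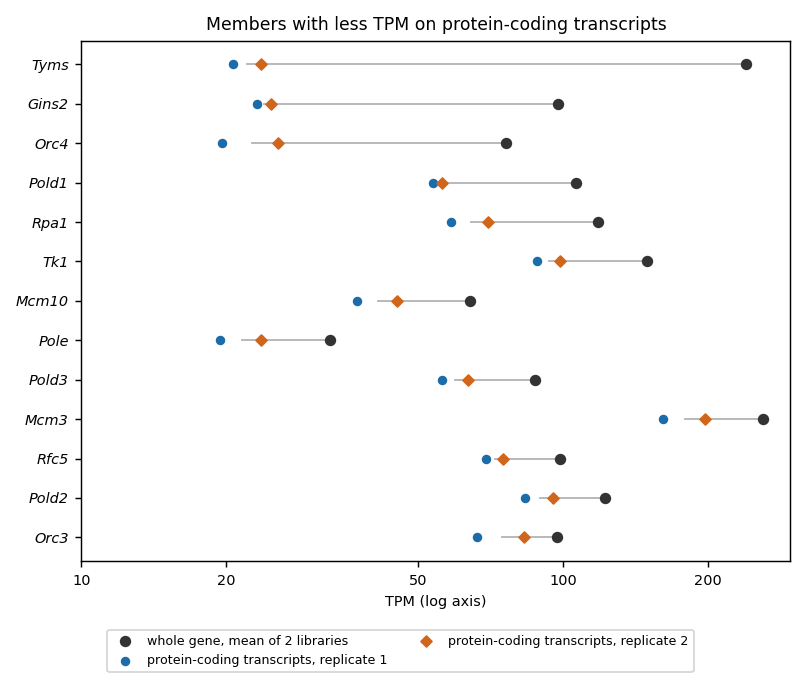
TPM on a log axis of the whole gene (black, mean of both libraries) and of its protein-coding transcripts in replicate 1 (circles) and replicate 2 (diamonds), for the 13 members whose gene level is at least 1.3-fold the coding level, Rfc1 left out. Tyms drops furthest, to 20.6 and 23.6 TPM, followed by Gins2 and Orc4. Transcripts with no entry in M21, found in Pold3 and Pold1, count as not coding.

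Between the 2 pools the members differed little. Counts were scaled with TMM, which sets the libraries level on the bulk of genes. The median member had a log2 ratio of replicate 1 to replicate 2 of -0.08, against -0.02 for the 11522 protein-coding genes at a mean of 100 or more counts. No member was at least 25% higher in replicate 1, where 4.75% of those genes were, or in replicate 2, where 3.19% were. That count depended on the scaling: by TPM 4 members were at least 25% higher in replicate 2, where 7.85% of those genes were, and by spike-in scaling all 45 were, where 85.4% were. At 2-fold the shares of all genes were 0.217% and 0.0174%, and no member reached it. With 2 libraries of 1 group no p-value was computed: the smallest an exact sign-flip test of 2 values can give is 0.5.

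The direction was nonetheless uneven, with 38 of 45 members higher in replicate 2, where 54.5% of all genes were. Under TMM, 36 of the 45 lay on the replicate 2 side of the median gene. Scaling each library by another single factor, as with size factors or spike-ins, shifts all genes alike, so that count could not change. By TPM the count was also 36. Helicase genes had a median of -0.17, and the MCM2-7 subunits all lay between -0.21 and -0.15. Mcm6, for example, had 20658 scaled counts in replicate 1 and 23818 in replicate 2. The largest difference was that of Gins3, with 724 and 896 scaled counts and a log2 ratio of -0.31 (exact binomial 95% interval from -0.45 to -0.16, which covers counting error only). Orc2 at -0.25, Rrm1 at -0.24, Cdc6 at -0.23 and Orc1 at -0.21 came next. Clamp genes had a median of -0.03, and Pcna had 10852 and 10878 scaled counts. Gmnn, Gins2 and Rfc3 lay furthest the other way, each at 0.06, with intervals that include 0.

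Other gene lists differed between the same pools, not all in the same direction. The wider replication pathway, 47 genes outside the 45, had a median log2 ratio of -0.04, and 31 were higher in replicate 2. Of its 17 fork and clamp loading genes, 9 were higher there, with a median of 0.0. The 6 mesenchyme markers had a median of 0.08, with 5 higher in replicate 1. The 22 mitosis genes had a median of -0.06 and 19 were higher in replicate 2, and the 8 red cell precursor markers had a median of -0.15 with all 8 higher in replicate 2, where they summed to 1531 TPM against 1324. The 8 hepatoblast markers had a median of -0.03, with 5 higher in replicate 2, and summed to 10710 TPM in replicate 1 and 11910 in replicate 2. By TPM the median gene also leaned to replicate 2, with a log2 ratio of -0.1. The 6 heart muscle markers were higher in replicate 1 by a median of 1.63, from 1.1 to 2.19, and summed to 265.3 TPM in replicate 1 and 114.7 in replicate 2, with none at 0. The part of these cell types in the members' difference was not tested. Longer members leaned further towards replicate 2, with Pearson r = -0.53 and Spearman rho = -0.54 over 45 genes of the same 2 libraries, against -0.09 and -0.13 over 11522 genes. In the bin of 2000 to 3000 bases, set after the data were seen, the 16 members had a median of -0.15 and the 2987 genes of that length one of -0.05. The plot of library difference against length shows both features.

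**Figure D5:**
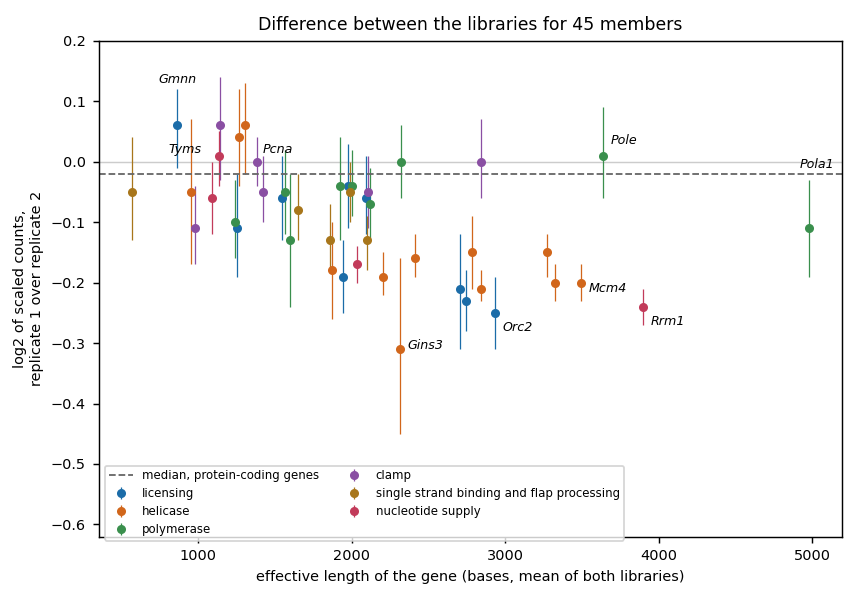
Log2 ratio of TMM-scaled counts, replicate 1 over replicate 2, against effective length in bases for the 45 members, coloured by role, with bars for the 95% interval of counting error; the dashed line is the median of protein-coding genes at -0.02. Most points lie under the line, from -0.31 (Gins3) to 0.06.

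The wider replication pathway, 47 genes outside the 45, was high as well, with a median of 66.2 and 67.8 TPM. Origin firing factors were the lowest of its 4 groups, at a median of 33.2 TPM in replicate 1. In that group Ticrr, which brings CDC45 to the ring, had 8.63 and 10.1 TPM and Recql4 had 12.2 and 13.6, while Topbp1 had 76.0 and 81.3 and Dbf4, the activator of the CDC7 kinase, had 51.0 and 52.2. Among fork and clamp loading genes, Top2a, the topoisomerase that untangles daughter strands, had 240 and 265 TPM and Tipin, a fork protection factor, had 239 and 260, while Pold4 and Atad5, which unloads PCNA, had 15.9 and 18.1 in replicate 1 and 15.1 and 15.6 in replicate 2. Among chromatin assembly genes Ssrp1, a subunit of the FACT histone chaperone, led with 258 and 307 TPM and Nasp, another histone chaperone, had 143 and 148, while Chaf1a had 35.8 and 38.6 and Supt16, the partner of Ssrp1 in FACT, had 41.2 and 48.5.

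The enzymes around Tyms and ribonucleotide reductase were uneven too. Dut, which removes dUTP, had 263 and 268 TPM and Dtymk, the next enzyme after thymidylate synthase and thymidine kinase, had 248 and 239. Samhd1, which breaks deoxynucleotides down, was far lower at 25.3 and 26.7. The mitosis genes, 22 in all, had a median of 79.3 and 93.7 TPM, close to that of the members, from Cenpe at 22.6 and 24.7 and Espl1 at 25.3 and 27.8 to Birc5 at 335 and 346 and Cdk1 at 334 and 378.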

How the data were processed

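The authors deposited gene and transcript quantifications of total RNA-seq. Per the file headers they hold each estimated count (expected count), TPM, FPKM, posterior means with credibility intervals and, for transcripts, percent of the gene. The deposited README names the mm10 build and the labels name a SmartSeq protocol; the quantifier and the level of the credibility intervals are not stated in the sources used here. Of 90 deposited TPM values of members, 15 lay outside their own interval, which is centred on the posterior mean. Deposited TPM values were used for levels, and deposited FPKM values and percent of the gene as alternatives and for transcripts. Symbols and transcript types came from GENCODE M21, which matched 42462 of 43346 gene entries. Spike-ins held 14.6% and 11.1% of the TPM and were left out of gene counts.

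Library differences were computed from expected counts scaled by TMM (edgeR 4.0.16, R 4.3.3) with a pseudocount of 0.5 and a mean of at least 100 counts, a step tested on simulated counts. Log2 ratios between genes used TPM plus 0.1. A chi-square of the 2 libraries' counts was 10.3 per degree of freedom, so they are not copies of 1 library. The labels number the pools as biological replicates. Protein sequences were not used here. Alternatives covered DESeq2 1.42.0 size factors, spike-in scaling, TPM ratios, posterior means, FPKM, counts and motif settings. Named genes were all members, the 2 highest and 2 lowest of each other list, pair genes and start neighbours. One gene that this rule names is not reported here. The members and lists were chosen with earlier results of these data known.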

Additional observations from a re-analysis of the deposited data

How the results depend on the processing

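Of 137 values computed under alternatives, 75 kept their size and 3 reversed. Another 56 moved beyond the spread between the libraries or their counting interval (35 of them ratios of pairs, of 59). Among counts, 1 fell and 2 rose by over 1.5 times, and smaller changes of a count are among the 75. Some of the 75 could not have moved. Leaving out 1 of 2 libraries cannot take a median beyond their spread. All members passed 10 TPM, so detection levels of 0.5 and 5 could not alter that count. The 75 is thus no measure of robustness. On expected counts Cdt1 over Gmnn had a log2 ratio of 0.09 and Rrm2 over Rrm1 of -0.26, both reversed, as counts are not divided by length. On protein-coding transcripts alone, chosen after seeing the data, Tk1 over Tyms reversed to 2.07 and the members' median TPM, 98.4 as the mean of both libraries, was 77.5 without Rfc1. That median was 113 after rescaling to mouse genes and 72.1 in FPKM. The number of ordered neighbouring steps, 16, fell to 9 on expected counts. The members' median library ratio was -0.15 by TPM and -0.57 by spike-in scaling, where all genes shifted by -0.08 and -0.49; the members at least 25% higher in replicate 2 were then 4 and 45, against 7.85% and 85.4% of all genes. The coding share of 83.6% was 92.5% by counts. The E2F share of 40.5% was 64.9% with the shorter spelling and 24.3% before the start only. Leaving out each replicate gave a median of 91.7 to 105 TPM, 39 to 40 members at 50 TPM, 18 to 19 ordered pairs and 17 to 19 ordered steps. No paired analysis was possible because there is 1 group. Depth was not the limit for the members, of which Gins3 had the fewest counts, 753 in replicate 1.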
